A study of Mus musculus with 24 samples.

Results

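The 45 mitotic genes described here encode proteins that carry a cell through chromosome condensation, spindle assembly, chromosome segregation and cytokinesis. They were chosen as a list of symbols, by function and not by a measured threshold, with earlier results of these data known. A gene was taken from the array only through probe sets that the platform annotation assigned to its symbol alone. Of the 45 genes, 44 had such a probe set. Ccnb1, the gene of cyclin B1, had none and has no value here. Where a gene had several such probe sets, the one with the highest average over the 24 arrays stood for it. All 44 were among the 9825 genes whose probe sets reached a log2 value of 5 on at least 6 arrays. The cells were MMH-D3, an immortalized mouse hepatocyte line, and were kept for 14 days after confluence in medium with 2% DMSO to differentiate. MMH lines come from livers of mice that carry a transgene for an active, truncated form of the MET receptor. All of them then received a serum shock, a pulse of serum used to align the circadian clocks of cultured cells. RNA was collected from 12 to 58 h after the shock every 2 h, and each of the 24 time points was measured on 1 Affymetrix array. No untreated culture and no sample from before the shock were analysed here, no time point had a replicate, and the labels do not say whether the time points were separate cultures.

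The measured values are log2 expression after GCRMA, a procedure that corrects background, normalizes and summarizes the probes of a set. Since no time point had a replicate, the arrays were pooled into 6 windows of 4 consecutive arrays (12-18, 20-26, 28-34, 36-42, 44-50 and 52-58 h). The spread used in the tests is that of 4 neighbouring hours about their mean, so it holds change within a window as well as technical error. The array at 40 h had the lowest median over measured probe sets, 8.96, against 9.04 to 9.14 on the other arrays, and the highest 18S rRNA value, 5.32. Of 13 hepatocyte markers 8 were measured, with Alb at a mean of 15.97 and Hnf4a at 11.93, but Apoa2, Apoh and F2 had means of 2.17, 2.31 and 2.17, where the table's lowest value is 2.17. The bile duct markers Krt19, at 15.44, and Krt7, at 12.53, were also high. None of 9 fibroblast or 5 endothelial markers was measured, and 3 of 7 macrophage markers were.

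Mitosis is driven by cyclin-dependent kinase 1 bound to A- and B-type cyclins, and it ends when the anaphase-promoting complex marks cyclins and the separase inhibitor securin for destruction. Most genes of this programme are transcribed in late S and G2 phase, and in resting cells the DREAM complex holds many of them down through the CHR element, often placed near CCAAT boxes. Adult hepatocytes divide rarely and enter the cycle in a wave after loss of liver tissue. In RNA from a whole culture, fewer cells in mitosis and less mitotic RNA per cell cannot be told apart.

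All 44 measured mitotic genes rose together between 12 and 26 h, stayed high until 42 h, dipped to a low at 48 h and held an intermediate level to the end. Their mean level was 6.21 at 12 h, 6.09 at 14 h, 7.22 at 16 h, 8.60 at 20 h and 10.11 at 26 h. It then lay between 9.53 at 30 h and 10.07 at 36 h until 42 h, and it was 8.15 at 48 h, 9.24 at 50 h and 8.86 at 58 h. All 44 changed over the 6 windows in limma's moderated F test with Benjamini-Hochberg adjustment, where 62.8% of all measured genes did. Between 20-26 h and 12-18 h, all 44 rose by the same test's contrast, against 6.95% of all genes that rose. The log2 difference had a median of 2.59 and ran from 0.83 for Smc4 to 3.78 for Cenpa on the probe sets used, with limma adjusted p between 1.67e-06 and 0.000583. The median over all measured genes was -0.03.

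**Figure D1:**
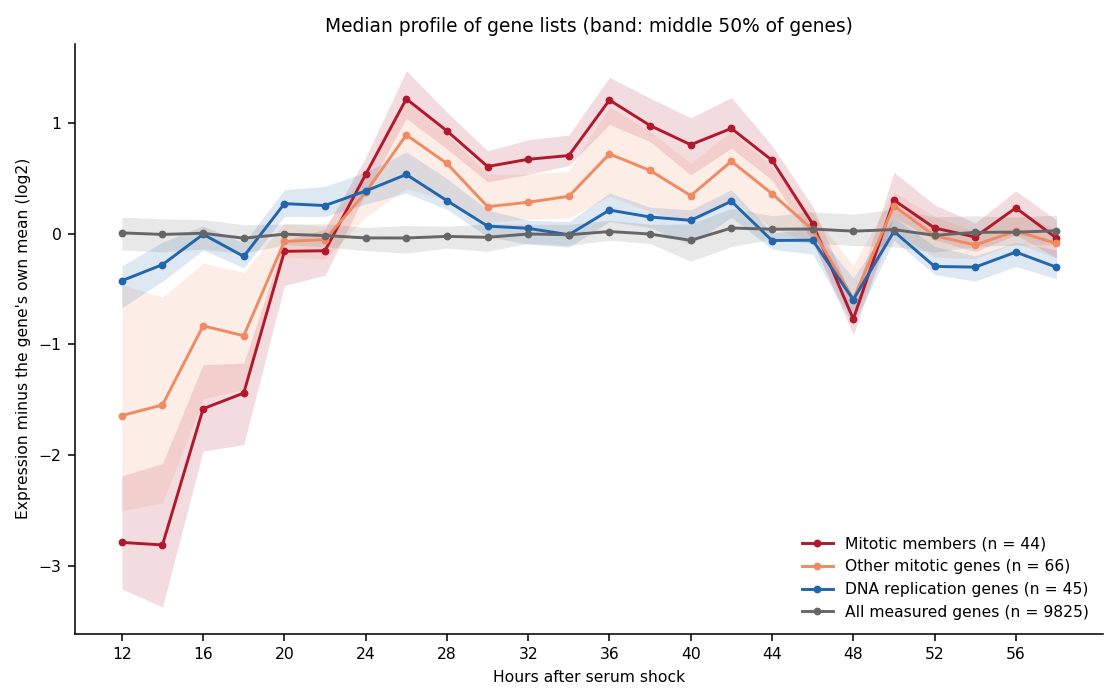
Median profile of 44 mitotic genes, 66 other mitotic genes, 45 DNA replication genes and all 9825 measured genes, each gene centred on its own mean (y, log2) against hours after serum shock (x); the band holds the middle 50% of genes. The mitotic line climbs in steps to 26 h, stays high to 42 h and has its low at 48 h, while the line of all genes stays near 0.

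Most promoters at hand for these genes hold sequence elements that the selection did not use. They were searched for because they are known in cell cycle promoters. RefSeq promoter windows of 300 bases (250 before and 50 after the start, build GRCm38.p6) were at hand for 38 of the 45 genes, 40 windows in all. The CHR element, searched as TTTGAA or TTCGAA on both strands, stood in 31 of 40 windows (77.5%), against 19.2% of 32851 windows of all genes. The CCAAT box, searched as CCAAT on both strands, stood in 77.5% of the mitotic windows and in 37.4% of all windows. Both were present in 70.0% of the mitotic windows, against 7.52% of all. Birc5, Mad2l1, Melk, Nuf2, Nusap1 and Pttg1 had neither. In 17 mitotic windows (42.5%) a CCAAT box began 20 to 40 bases before a CHR element, an arrangement found in 0.968% of all windows. That spacing was chosen after the sequences were seen. The elements were not particular to this list. Of the other mitotic genes compared below, 61 had windows, 71 in all. Of these windows 54.9% held a CHR element, 63.4% a CCAAT box, 36.6% both and 11.3% the spaced pair. Of the DNA replication genes compared below, 39 had windows, 46 in all, of which 21.7% held a CHR element and 4.35% the spaced pair. These are matches of letters, and no binding was measured. The 120 bases before the start are shown for the 6 genes that have 1 window and whose CHR element lies within 50 bases before the start with a CCAAT box 20 to 40 bases before it. They show where the pair sits, with the CCAAT box and the CHR element of the pair in capitals. ATTGG and TTCAAA are these motifs on the other strand.
Cdc20, chr4:118437344-118437463, minus strand: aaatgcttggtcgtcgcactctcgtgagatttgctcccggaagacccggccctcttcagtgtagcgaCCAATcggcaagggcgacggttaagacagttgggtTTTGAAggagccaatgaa
Cdk1, chr10:69352913-69353032, minus strand: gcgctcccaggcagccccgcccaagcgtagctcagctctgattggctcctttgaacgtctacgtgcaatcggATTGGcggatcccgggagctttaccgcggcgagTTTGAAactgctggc
Kif11, chr19:37376262-37376381, plus strand: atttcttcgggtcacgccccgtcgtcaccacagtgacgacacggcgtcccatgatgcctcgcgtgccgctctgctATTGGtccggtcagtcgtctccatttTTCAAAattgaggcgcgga
Kif22, chr7:127042421-127042540, minus strand: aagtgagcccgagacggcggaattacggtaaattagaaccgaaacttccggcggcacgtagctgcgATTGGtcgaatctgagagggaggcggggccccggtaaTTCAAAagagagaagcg
Top2a, chr11:99024190-99024309, minus strand: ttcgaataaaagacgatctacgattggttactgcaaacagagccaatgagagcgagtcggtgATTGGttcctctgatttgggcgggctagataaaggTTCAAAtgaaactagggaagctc
Ube2c, chr2:164769809-164769928, plus strand: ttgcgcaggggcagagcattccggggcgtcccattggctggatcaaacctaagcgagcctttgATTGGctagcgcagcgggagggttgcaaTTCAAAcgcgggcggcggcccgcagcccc
In these 6 promoters the first bases of the pair lay 26 to 37 bases apart, and the CHR element began 15 to 29 bases before the start.

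Among the cyclins, CDK1 and the kinases of mitotic entry, the B-type cyclin gene Ccnb2 made one of the largest moves. Its level was 8.98, 9.17, 10.23 and 11.21 at 20, 22, 24 and 26 h, against 5.68, 5.19, 6.94 and 6.85 at 12, 14, 16 and 18 h, with no overlap between the windows. This is a 13.2-fold rise, a log2 difference of 3.73 ± 0.42 (SE) with a limma adjusted p of 6.82e-06. Cdk1, the kinase itself, was already expressed at 12-18 h with a window mean of 9.09, and it rose by 1.83. Ccna2, which encodes cyclin A2 and acts from S phase on, rose by 2.67 and peaked at 26 h, whereas Ccnb2 had its highest value, 11.41, at 42 h. By window mean Ccna2 and Ccnb2 were both highest at 36-42 h, at 10.75 and 11.31. Plk1, a kinase of entry, spindle assembly and exit, was 7.47, 7.65, 8.65 and 9.58 in the 20-26 h arrays, against 4.18, 4.18, 5.49 and 5.78 in the 12-18 h arrays, and so began below log2 5. Aurka, the Aurora kinase of centrosomes and spindle poles, also began dim, with a window mean of 7.75 at 20-26 h and 4.32 at 12-18 h, a difference of 3.43. Nek2, a centrosome kinase, and Melk, a kinase abundant in dividing cells, rose by 2.18 and 2.07.

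In the chromosomal passenger complex, which corrects wrong attachments between spindle and chromosomes, the 4 genes rose by unequal amounts. Aurkb, its kinase, rose by 2.89 ± 0.41 (SE) on the log2 scale, and Birc5, which encodes survivin, by 2.78 ± 0.36 (SE). Cdca8, which encodes borealin, rose by 2.06 ± 0.25 (SE). The scaffold gene Incenp was high from the outset and rose least of the complex, with 10.04, 10.12, 10.50 and 10.92 at 20, 22, 24 and 26 h, against 8.90, 8.90, 9.55 and 9.41 at 12, 14, 16 and 18 h. All 4 had their highest array at 26 h. Aurkb also had the largest later fall of the 44 genes. It was 9.27, 8.61, 7.73 and 9.05 at 44, 46, 48 and 50 h, against 10.36, 10.17, 10.21 and 10.29 at 36, 38, 40 and 42 h, which is 3.01-fold lower (log2 difference -1.59 ± 0.41 (SE), limma adjusted p = 0.00509). No member's call in this contrast held without the arrays at 46 and 48 h, as given below.

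The spindle assembly checkpoint delays anaphase until every kinetochore is attached. Among its genes, Ttk, the MPS1 kinase at the top of the checkpoint, was the dimmest at the outset, with a mean of 4.40 at 12-18 h and values below 5 at 12 and 14 h, and it rose by 3.16. Its value at 18 h, 5.61, just reached the midpoint of its rise, also 5.61, and that midpoint rests on a dim lowest value of 2.81 at 14 h. Bub1, a checkpoint kinase, rose by 2.89, and Bub1b, which encodes BubR1, by 2.46. Mad2l1, the gene of the inhibitor that binds CDC20, moved less and from a higher level, with window means of 10.78 at 20-26 h and 9.27 at 12-18 h. At the other end of the course, Bub1b and Mad2l1 fell in 44-50 h over 36-42 h (log2 differences -1.10 and -0.73), while Bub1 and Ttk did not pass (-0.71 with limma adjusted p = 0.146, and -0.84 with 0.165).

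Genes around the anaphase-promoting complex included the latest risers. Cdc20, its activator, was 9.17, 9.21, 9.91 and 10.68 in the 20-26 h arrays, against 7.91, 7.93, 8.30 and 8.07 in the 12-18 h arrays, and Pttg1, the gene of securin, was 8.70, 9.07, 9.99 and 10.60, against 7.86, 8.12, 8.19 and 8.12. Both reached their midpoint only at 24 h. Ube2c, the ubiquitin-conjugating enzyme that works with the complex, spanned a range of 6.66, with a lowest value of 5.49 at 14 h and a highest of 12.15 at 40 h. Without the 40 h array, which had the lowest median, its range was 6.31, and that of Aurka 6.33. Its windows averaged 6.77, 10.07, 11.13, 11.85, 10.94 and 10.99 in order of time. Cdca3, a target of the complex that promotes mitotic entry, rose by 3.19 ± 0.36 (SE) and had the deepest dip at 46 to 48 h, described below.

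Among centromere and kinetochore genes, Cenpa, the histone H3 variant that marks centromeres, was 6.64, 6.87, 7.92 and 9.22 at 20, 22, 24 and 26 h, against 3.88, 3.91, 4.13 and 3.64 at 12, 14, 16 and 18 h. All 4 early values lay below 5 and all 4 later ones above it, a 13.7-fold rise (log2 difference 3.78 ± 0.37 (SE), limma adjusted p = 1.68e-06). Since GCRMA values near the bottom of the scale carry little signal, this fold change and those of the other dim genes are less certain than their errors show. Cenpe, a kinesin that moves chromosomes to the spindle equator, was the dimmest gene of the list at the outset, at 2.20 at 12 h, close to the table's lowest value of 2.17, and it rose by 3.28. Cenpf, a large protein of the outer kinetochore, rose by 3.39. All 4 subunits of the NDC80 complex, which binds microtubules at the kinetochore, were measured. Ndc80 rose by 2.44, Nuf2 by 2.96, Spc25 by 2.59 and Spc24 by 1.79. Spc24 was the brightest of the 4 at 12 h, at 6.77, and kept 47.6% of its rise at the end.

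Among the kinesins, motor proteins that slide and shorten spindle microtubules, Kif20a changed most, by 3.45 ± 0.44 (SE) on the log2 scale, with 8.06, 7.94, 8.87 and 9.84 at 20, 22, 24 and 26 h, against 4.29, 4.09, 6.02 and 6.49 at 12, 14, 16 and 18 h. Kif11, the motor that pushes spindle poles apart, rose by 2.70, and Kif2c, which takes microtubule ends apart, by 2.50. Kif22, which drives chromosome arms outward, rose by 2.02. Kif4, a chromosome-bound motor, rose by 2.32 and had the lowest mean of the 44 genes, 5.82. Kif23, a motor of the central spindle, rose by 1.25 and fell back furthest. Its 52-58 h mean of 9.64 kept 38.3% of the log2 rise between 12-18 h and 36-42 h, the lowest share of the list.

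Of the spindle-associated proteins, Tpx2, which activates Aurora A, rose by 2.99 and Nusap1, which bundles spindle microtubules, by 3.18. Hmmr, a spindle pole protein, rose by 2.60 and Prc1, the crosslinker of the central spindle, by 2.90. In the condensin group, the shared subunits Smc4 and Smc2 were the brightest of all 44 genes at 12-18 h, with window means of 11.53 and 10.30, and they rose less than the rest of the group. Smc2 rose by 1.37. Smc4 was 12.19, 12.11, 12.49 and 12.66 at 20, 22, 24 and 26 h, against 11.34, 11.41, 11.49 and 11.88 at 12, 14, 16 and 18 h, a 1.78-fold rise. Ncapd2 and Ncapg, the subunits particular to condensin I, rose by 2.24 and 2.62, and Top2a, the topoisomerase that untangles sister chromatids, by 2.69. In the cytokinesis group, Ect2, which activates the GTPase of the contractile ring, rose by 1.73, its partner Racgap1 by 2.11 and the ring scaffold gene Anln by 2.46.

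**Figure D2:**
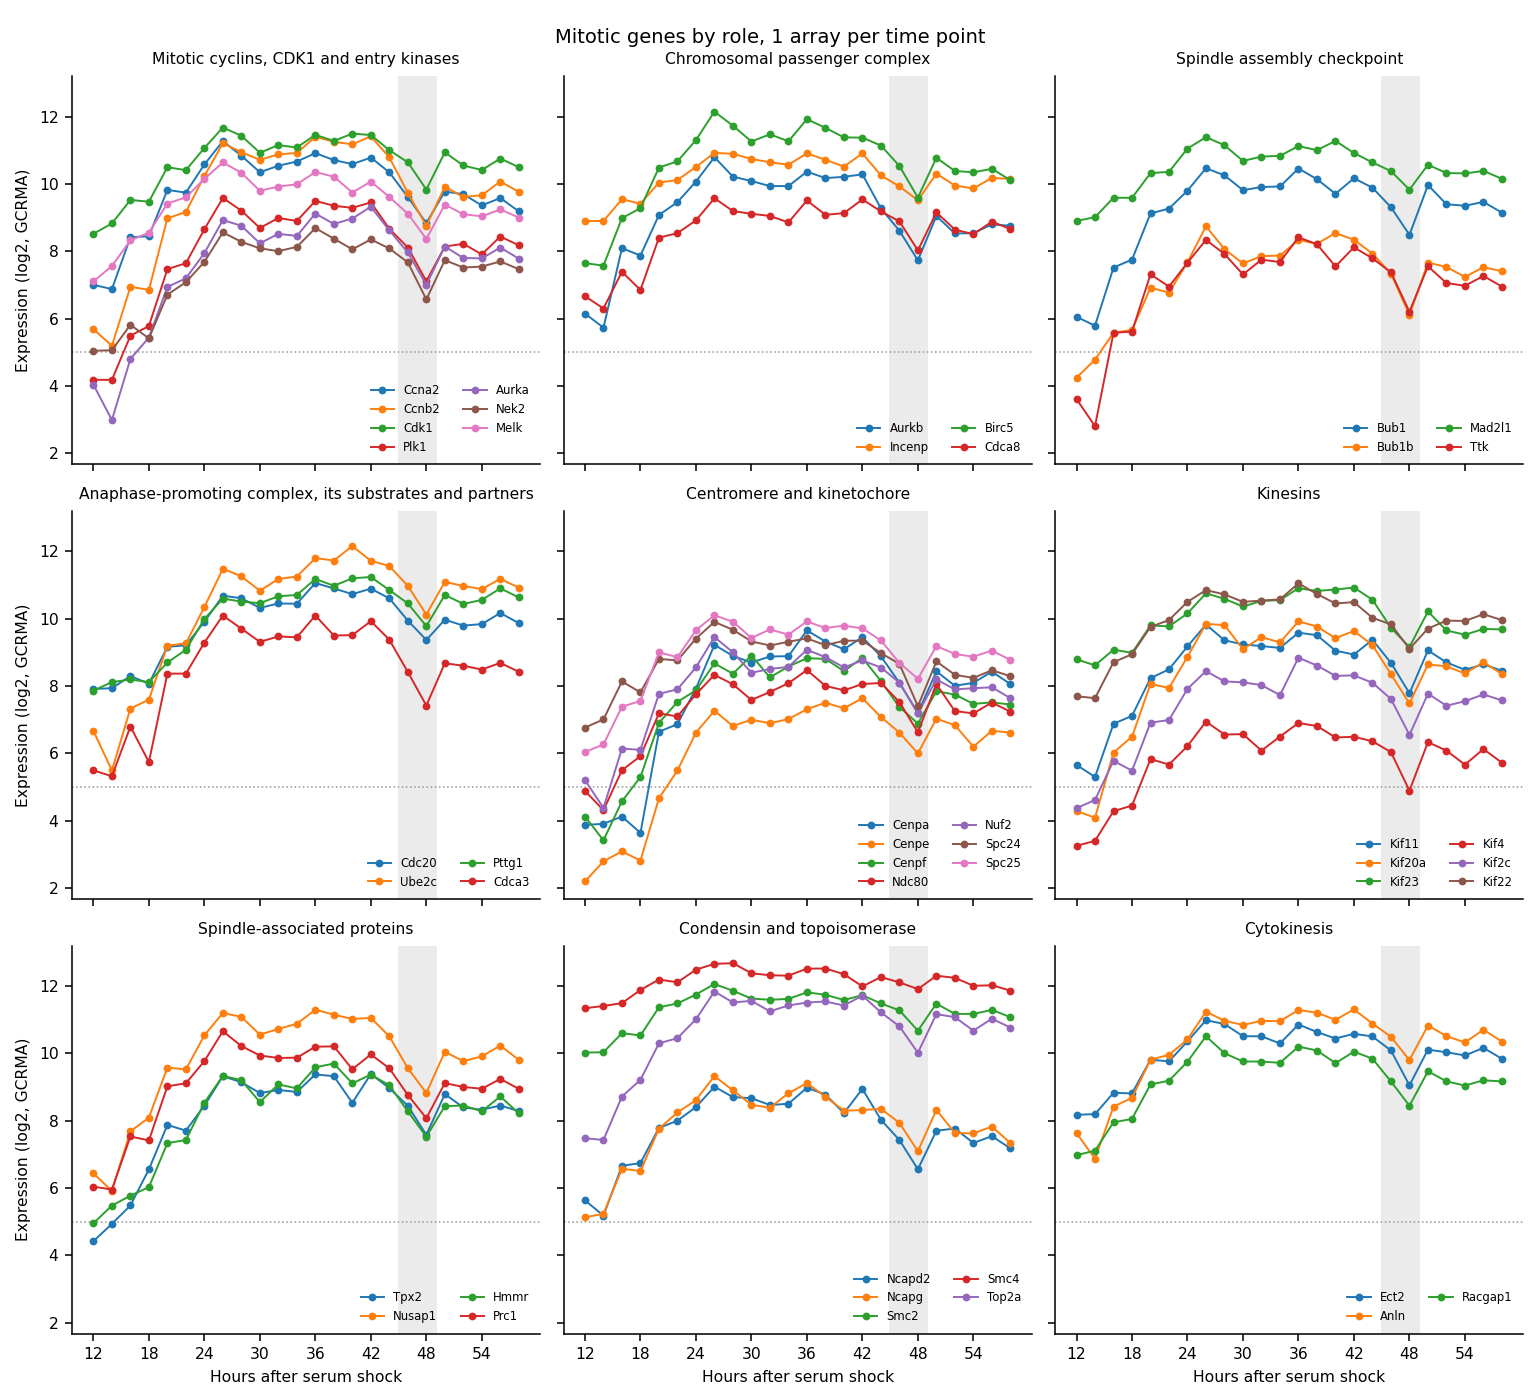
Log2 expression (y, GCRMA) of each of the 44 mitotic genes on the 24 arrays (x, hours after serum shock), in 9 panels by role. Each point is 1 array, the dotted line is log2 5 and the grey band holds the arrays at 46 and 48 h; every gene except Smc4 has its lowest value of the 40 to 58 h arrays at 48 h.

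Low signal was a matter of the first hours. Of the 44 genes, 13 lay below log2 5 at 12 h, 13 at 14 h, 5 at 16 h, 3 at 18 h and 1 at 20 h. After that the sole value below 5 was that of Kif4 at 48 h, 4.89. No gene had a mean over the 24 arrays below 5. The genes whose 12-18 h mean lay below 5 were Plk1, Aurka, Ttk, Cenpa, Cenpe, Cenpf and Kif4, with means from 2.72 for Cenpe to 4.91 for Plk1.

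The climb came in steps shared by the whole list. From 14 to 16 h all 44 genes went up, by a median of 1.14 log2, and from 18 to 20 h all 44 went up again, by a median of 1.29. Between these steps, from 16 to 18 h, 24 went up and 20 down, with a median of 0.06. From 20 to 22 h the median was 0.10, and from 22 to 24 h and from 24 to 26 h all 44 went up, by medians of 0.66 and 0.70. The median of all measured genes moved by at most 0.12 between any neighbouring arrays. The earliest array that lay, together with the next, at or above the midpoint between the lowest value before the peak and the peak was that of 20 h for 38 of the 44 genes. Ttk reached it at 18 h, Cenpa, Cenpe and Nek2 at 22 h, and Cdc20 and Pttg1 at 24 h.

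**Figure D3:**
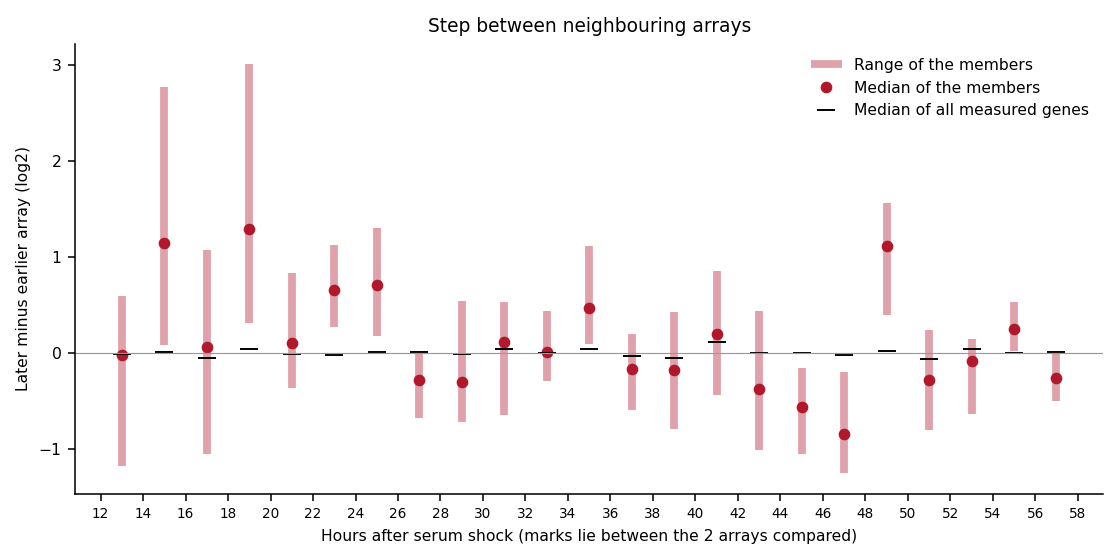
Difference between neighbouring arrays (y, log2, later minus earlier) for the 44 mitotic genes, as their range (bar) and median (point), with the median of all measured genes (dash), against hours after serum shock (x). All 44 genes went up at 14 to 16, 18 to 20, 22 to 24, 24 to 26, 34 to 36, 48 to 50 and 54 to 56 h, and all 44 went down at 44 to 46, 46 to 48 and 56 to 58 h.

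Peak hours, each read from a single array, split the list. The highest array was that of 26 h for 24 genes. These were Ccna2, Cdk1, Plk1, Melk, Aurkb, Birc5, Cdca8, Incenp, Bub1, Bub1b, Mad2l1, Cdca3, Nuf2, Spc24, Spc25, Kif11, Kif4, Prc1, Ncapd2, Ncapg, Smc2, Top2a, Ect2 and Racgap1. The other 20 genes peaked later: Smc4 at 28 h, Cenpf at 30 h, Hmmr at 38 h, Ube2c at 40 h, 9 genes at 36 h (Cdc20, Cenpa, Kif20a, Kif22, Kif2c, Ndc80, Nek2, Nusap1 and Ttk) and 7 at 42 h (Anln, Aurka, Ccnb2, Cenpe, Kif23, Pttg1 and Tpx2). For some genes the heights were close, as in Plk1, with 9.58 at 26 h and 9.50 at 36 h. With a running mean over 3 arrays the median peak hour was 36 h instead of 26 h. By window mean the list was not split in this way. Every gene was highest at 36-42 h except Spc24, Ncapg and Smc4, which were highest at 28-34 h. Cdk1, with its highest array at 26 h, averaged 11.42 at 36-42 h and 10.91 at 20-26 h. From 34 to 36 h all 44 genes went up, by a median of 0.47.

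Between 28-34 h and 20-26 h no member passed (limma, adjusted), where 0.122% of all genes did in either direction. By the same test 8 members had an unadjusted p under 0.05, where 1876 of the 18526 measured probe sets did. Without the array at 26 h 3 members passed, where 51 of 9825 genes did in either direction. Between 36-42 h and 28-34 h no member passed either, where 0% of all genes did. There 1 member had an unadjusted p under 0.05, where 2249 of the 18526 probe sets did. The members' median differences were 0.32 and 0.22. Within this plateau, the largest difference of 36-42 h over 28-34 h was that of Ube2c, 0.72, followed by Aurka with 0.57 and Pttg1 with 0.56. At the other end, Smc4 had -0.08, Spc24 -0.05 and Ncapg -0.03. None of these differences passed the test.

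**Figure D4:**
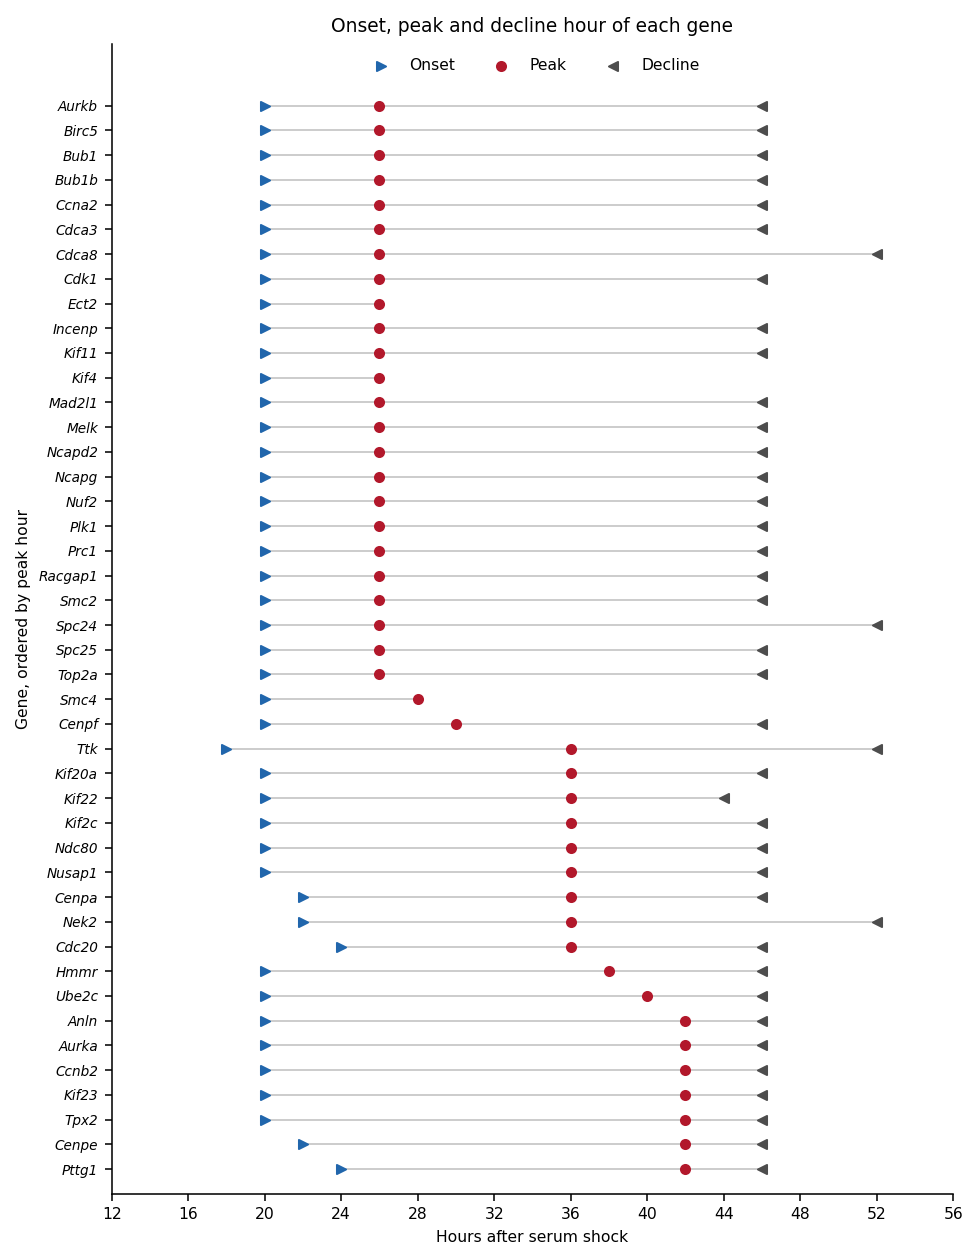
Hour of onset (triangle pointing right), peak (circle) and decline (triangle pointing left) of each of the 44 mitotic genes (y, ordered by peak hour), in hours after serum shock (x); Ect2, Kif4 and Smc4 have no decline hour. Onset lies at 20 h for 38 genes, the peaks gather at 26, 36 and 42 h, and decline lies at 46 h for 36 genes.

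The decline was shared by most of the list. The earliest array after the peak that lay, with the next, below the midpoint between the peak and the lowest value after it was that of 46 h for 36 genes, 44 h for Kif22, and 52 h for Cdca8, Nek2, Spc24 and Ttk. It was not defined for Kif4 and Ect2, which had no 2 consecutive low arrays, or for Smc4, whose fall was under 1 log2. In every gene except Smc4 the lowest value after the peak was that of 48 h. A decline hour of 46 h thus rests on the arrays at 46 and 48 h and restates the dip described below. Some of these genes were back above the midpoint at 50 h, such as Bub1 with 9.97. Between 44-50 h and 36-42 h, 30 of 44 members fell by limma's adjusted test, against 12.7% of all genes that fell. The median log2 difference was -0.90, from -1.59 for Aurkb to -0.20 for Smc4. By limma 36 members had an unadjusted p under 0.05, where 7807 of the 18526 measured probe sets did in either direction. The 14 that did not pass the adjusted test were Cdca8, Bub1, Ttk, Ube2c, Cenpe, Ndc80, Nuf2, Kif11, Kif4, Tpx2, Ncapg, Smc4, Top2a and Anln. These calls rested on the arrays at 46 and 48 h. Without both, a fit added after the data were seen, none of the 44 passed in this contrast. In that fit 1686 of 9825 genes passed in either direction, against 3270 with all arrays. Without the 48 h array alone 11 members passed, where 2672 of 9825 genes did in either direction. With no filter on low values 12 members passed, where 2481 of 18193 genes did. Without the arrays at 40 and 46 h 16 members passed, where 2085 of 9825 genes did.

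A lower level was also measured after those arrays. In a comparison added for that reason, after the data were seen, 52-58 h over 36-42 h, 31 of 44 members fell (limma, adjusted), against 17.7% of all genes, with a median difference of -0.94 and a range from -1.60 to -0.31. With the 46 and 48 h arrays left out of the fit, 34 did, with the same median difference of -0.94. Calls also rose among the 45 DNA replication genes, from 27 with all arrays to 31. The share of all genes was not counted in that fit. Aurkb was 8.53, 8.54, 8.80 and 8.76 in the 52-58 h arrays, against 10.36, 10.17, 10.21 and 10.29 in the 36-42 h arrays. Kif23 was 9.65, 9.52, 9.69 and 9.68, against 10.90, 10.82, 10.87 and 10.92. In neither gene did the windows overlap. Between 52-58 h and 44-50 h no member passed, where 0.0407% of all genes did in either direction. By limma 0 members had an unadjusted p under 0.05, where 1826 of the 18526 measured probe sets did.

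**Figure D5:**
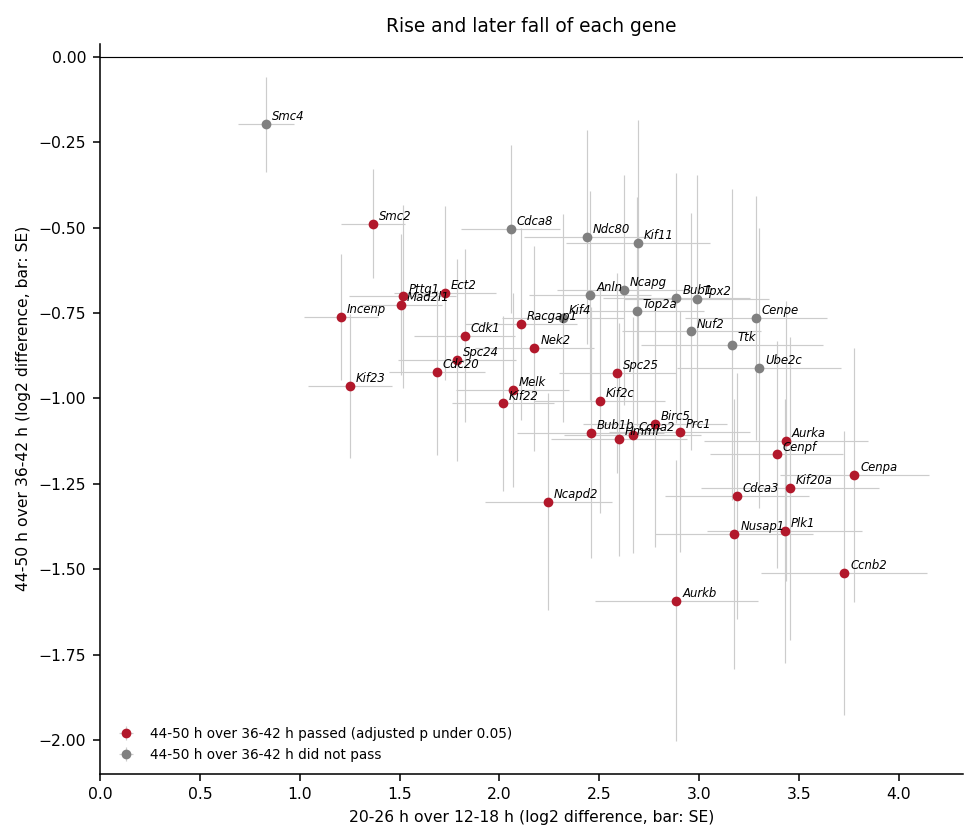
Log2 difference of 44-50 h over 36-42 h (y) against that of 20-26 h over 12-18 h (x) for each of the 44 mitotic genes, with the standard errors of the limma fit as bars; red marks the 30 genes that passed in the later contrast. All lie right of 0 and below 0, with Smc4 nearest the origin and Aurkb lowest.

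The dip at 46 to 48 h was measured as the mean of those arrays minus the mean of 42, 44, 50 and 52 h. Being named with the profile in view, it is given without a test. It was below 0 in all 44 genes, where 4603 of 9825 measured genes were below 0. In 42 of the 44 it was past -0.5 log2, where 2.26% of all measured genes were. The median was -0.84, against 0.01 for all genes, and the range ran from -1.23 for Cdca3 to -0.19 for Smc4, with Smc2 at -0.49. Cdca3 was 9.93, 9.37, 8.41, 7.42, 8.67 and 8.60 at 42, 44, 46, 48, 50 and 52 h. Ccnb2 was 11.41, 10.79, 9.74, 8.76, 9.92 and 9.61 at the same hours. The low was a single array in depth: all 44 genes were lower at 46 than at 44 h (median -0.56), all 44 were lower at 48 than at 46 h (median -0.85), and all 44 were higher at 50 than at 48 h (median 1.12). At 50 h the median difference from 44 h was -0.31. The members' mean level at 46 h, 8.97, was not below the 8.86 at 54 and 58 h. Only the 48 h mean, 8.15, lay below all later arrays.

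Every role took part in the dip. The medians by role lay between -0.64 for condensin and topoisomerase and -0.96 for the spindle-associated proteins. Beside these values, the array at 46 h had the highest median over measured probe sets of the 24 arrays, and that at 48 h did not stand apart. Their medians over measured probe sets were 9.14 and 9.13, where the arrays at 44 and 50 h both had 9.13, and the difference between 3' and 5' probe sets of Actb was 0.47 and 0.39, where the other arrays ranged from 0.32 to 0.51. The measured hepatocyte markers went both ways, with dips from -0.84 to 0.88 and a median of -0.21, and the bile duct markers had dips from -0.19 to 0.52. In 44-50 h over 36-42 h, 3 of the 8 hepatocyte markers fell (Alb, Ttr and Hnf4a) and 2 rose (Rbp4 and Ahsg), where 12.7% of all genes fell and 20.5% rose. Their part in the mitotic values was not tested. With 1 array per hour, the culture sampled at 48 h and the hour itself cannot be told apart.

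At the end of the course the mitotic genes were still well above the start. All 44 were higher at 52-58 h than at 12-18 h (limma, adjusted), against 25.4% of all genes that were higher, with a median of 2.26, a range from 0.50 to 4.26 and adjusted p between 7.31e-09 and 0.0164. Cenpa was 8.01, 8.10, 8.43 and 8.06 in the 52-58 h arrays, against 3.88, 3.91, 4.13 and 3.64 in the 12-18 h arrays. Pttg1 and Ube2c kept the most of their log2 rise between 12-18 h and 36-42 h, 83.2% and 83.0%, followed by Cenpe with 81.6% and Top2a with 80.2%. Kif23, Spc24 with 47.6% and Aurkb with 51.4% kept the least. Over the same comparison 6 of the 8 measured hepatocyte markers were lower and 1 was higher, where 19.9% of all genes were lower. The mean level of the 8 was 11.81 at 52-58 h and 12.69 at 12-18 h, and their part in the mitotic end level was not tested.

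No member passed the test of a 24 h rhythm. In limma's test of a 24 h cosine beside a linear trend, 0 of 44 members passed, where 2.77% of all genes did. The smallest adjusted p in that test was 0.361, that of Smc4. In the same test 0 members had an unadjusted p under 0.05, where 3692 of the 18526 measured probe sets did. The members' fitted amplitudes had a median of 0.36 log2, against 0.08 for all genes. A straight line cannot follow their rise, plateau and dip, which therefore count as spread. For that reason the test cannot decide whether they have a 24 h rhythm.

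The profiles were alike down to single arrays. Over the 24 arrays, Pearson's r between a gene and the mean of the other members ran from 0.897 for Pttg1 and 0.898 for Smc4 to 0.996 for Plk1, with a median of 0.983. These values share the same 24 libraries and the same steps, so they describe likeness and carry no test. The 44 genes had 103 probe sets. Of the 59 not used above, 27 were below the filter, and the 32 measured ones, in 22 genes, had the same sign of the rise and a dip below 0 in all 32 cases. The size of the rise in 20-26 h over 12-18 h depended on the probe set in some genes. For Hmmr the other 3 gave 3.89, 4.07 and 3.61, against 2.60 for the one used, and for Kif22 the other 2 gave 3.11 and 3.33, against 2.02. A smaller rise came from 1 other probe set of Nusap1, 1.42 against 3.18, and 1 of Kif2c, 1.65 against 2.50.

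Among genes in none of the lists used here (so without the other mitotic, replication and regulator genes), those with the most similar course, ranked by r with the mean centred profile, were Cip2a (0.979), D17H6S56E-5, Knstrn, Iqgap3, Neil3, Pclaf, Prdx4, Plk4, Spdl1 and Tubb6 (0.956). Knstrn and Spdl1 encode spindle and kinetochore proteins, Plk4 the kinase of centriole duplication and Pclaf a partner of PCNA. Iqgap3 was as dim at the outset as the dimmest members, with 7.24 at 36-42 h and 3.40 at 12-18 h. Prdx4, a peroxiredoxin of the endoplasmic reticulum, had a range of 2.06 log2.

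Other mitotic genes, from a wider list, had a like course in part. Of 66 measured, 52 rose in 20-26 h over 12-18 h, with a median of 1.57, where 6.95% of all genes rose. In 44-50 h over 36-42 h 28 fell, where 12.7% of all genes did. Their median dip was -0.52, with 34 of 66 past -0.5, where 2.26% of all genes were. The 5 of smallest F test p were Cdca2, Spag5, Aspm, Ccnf and Depdc1b. Aspm, a spindle pole protein, rose by 3.43 and had a dip of -1.45, and Ccnf, an F-box cyclin, rose by 2.41 with a dip of -0.50. Cdca2 rose by 3.42, Spag5 by 2.61 and Depdc1b by 2.59.

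DNA replication genes mostly rose in the same windows and ended near their starting level. Of 45 measured, 40 rose in 20-26 h over 12-18 h, with a median of 0.61, where 6.95% of all genes rose. The peak was at 26 h for 34 of them. In 52-58 h over 12-18 h their median was -0.04, with 7 higher and 7 lower of 45, both smaller shares than the 25.4% and 19.9% of all genes. Their median dip was -0.33, with 8 past -0.5, where 2.26% of all genes were. From 44 to 46 h their median step was 0.01, where that of the mitotic members was -0.56. From 46 to 48 h both lists stepped down, with median steps of -0.56 for replication genes and -0.85 for the mitotic ones. The difference between the lists was not tested. In 52-58 h over 36-42 h, 27 of the 45 replication genes fell, with a median difference of -0.43, where 17.7% of all genes fell. Of the 5 of smallest F test p, Fen1, Rrm1, Chaf1b and Tk1 peaked at 26 h and had end-over-start differences of -0.41, 0.39, -0.46 and -0.19. Dbf4, the activator of the replication kinase CDC7, peaked at 50 h and ended 1.53 above its start.

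Of the regulators of mitotic transcription and entry, Foxm1, a transcription factor of G2 genes, was 4.80 at 12 h, 9.48 at 26 h and 7.21 at 48 h, and it rose by 3.29 in 20-26 h over 12-18 h (limma adjusted p = 1.99e-05), with a dip of -0.81. Mybl2, which encodes B-MYB, rose by 1.46 but did not pass in 52-58 h over 12-18 h (0.16, adjusted p = 0.651). Cdc25b, a phosphatase that activates CDK1, rose by 1.78, peaked at 42 h and had a dip of -1.14. Wee1, the kinase that restrains CDK1, rose by 0.51 around a mean of 9.08. Cdkn1a, the gene of the CDK inhibitor p21, stayed between 13.23 and 14.00 and did not pass in 20-26 h over 12-18 h (0.10, adjusted p = 0.468). Cdc25c was below the filter, with a highest value of 4.81. In all, 12 of 25 measured regulators rose in 20-26 h over 12-18 h, where 6.95% of all genes did.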

How the data were processed

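RNA of 24 samples of serum-shocked MMH-D3 cells was measured, 1 array per 2 h from 12 to 58 h. The authors deposited 1 log2 value for each probe set and array; GCRMA is named in the submitters' processing notes; its version and settings are not given in the sources used here, and the log2 scale was read from the values. The lowest value, 2.17, made up 41.1% of all values, so a gene at it has only an upper bound. Of 45101 probe sets, 34945 had 1 gene symbol in the platform annotation, 932 several and 9224 none; only the first kind was used. Of these, 34741 matched a RefSeq gene (GRCm38.p6) by identifier, which changed 0 symbols. Probe sets of log2 5 or more on at least 6 arrays were kept: 18526 probe sets, 9825 genes.

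Window means and a 24 h cosine with a linear trend were fitted with limma 3.58.1 in R 4.3.3 with an intensity trend, and p-values were adjusted by Benjamini-Hochberg over the 18526 probe sets at a threshold of 0.05. Counts are over genes. The fits were also run on simulated data, with noise drawn independently for each probe set and array. That run cannot show how the tests behave where genes move together on 1 array or drift within a window. Onset, peak, decline and dip are descriptions without a test. The p-values measure the spread between these arrays, which may be technical; precision is limited by having 24 arrays. The members and lists were chosen with earlier results of these data known. The genes named are all members, 6 set regulators, the 5 of smallest F test p in the lists of other mitotic and of DNA replication genes, and the 10 of most similar profile outside the lists. Promoter sequences are RefSeq's. Alternatives were other scalings, no filter, 1 variance prior, the mean of all probe sets, a spline of time, arrays left out, and other rules for hours and dip.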

Additional observations from a re-analysis of the deposited data

How the results depend on the processing

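No paired analysis was possible because all 24 arrays belong to 1 group and each time point has 1 array. The count of 44 members that rose in 20-26 h over 12-18 h was the same under quantile normalization, centring, no filter, 1 variance prior and each array left out. With the mean of all probe sets, 38 genes passed the filter and all 38 rose. In 52-58 h over 12-18 h the count was 43 to 44 with single arrays left out and 43 with no filter. The 30 members that fell in 44-50 h over 36-42 h became 12 with no filter, 16 without the arrays at 40 and 46 h, 0 without those at 46 and 48 h (chosen after the data were seen) and 11 to 34 with single arrays left out, lowest without the 48 h array and highest without the 26 h array. Pttg1 had the call least able to stand a change, lost in 24 alternatives. In 44-50 h over 36-42 h, 3270 of 9825 genes passed in either direction. Without the arrays at 46 and 48 h, 1686 did. In 28-34 h over 20-26 h the count of 0 members ran from 0 to 3, the 3 without the 26 h array. The median peak hour was 36 with a running mean over 3 arrays, against 26 on single arrays; the median onset hour stayed at 20 and the median decline hour at 46 under the 4 alternatives run. The median dip was -1.27 when 48 h was taken alone, against -0.84. For single genes under the alternatives, pooled over the contrasts, 135 values lost their call and 4865 kept their direction and their side of the threshold. Calls gained are not among these values. The pooled counts do not show how much less steady 44-50 h over 36-42 h was than the other contrasts. Signal near the bottom of the scale limits the early values of the 7 genes whose 12-18 h mean lay below 5.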

Other observations

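The G1 cyclins and CDK inhibitors are another list of cell cycle genes. Of 11 measured, 6 rose in 20-26 h over 12-18 h by limma's adjusted test, where 6.95% of all genes did. In 44-50 h over 36-42 h 4 fell and 1 rose, where 12.7% and 20.5% of all genes did, and their median dip was -0.14. Cdkn2c and Cdkn2d, which encode INK4-type CDK inhibitors, were chosen after their values were seen, as was Ccnd1. Cdkn2c rose by 0.91 and fell by 1.31 in these contrasts, and Cdkn2d rose by 1.06 and fell by 0.90. Ccnd1, the gene of cyclin D1, ranged between 13.29 and 14.12 over the 24 arrays, with its highest value at 50 h. Its end-over-start difference was 0.59 (limma adjusted p = 2.92e-06).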
